A study of Mus musculus with 18 samples.

Results

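RNA sequencing followed mouse cells through a course of chemical reprogramming, and 111 genes had their highest level on day 6 (D6) with a lower level on both neighbouring days. They were chosen from the deposited FPKM values (fragment counts divided by transcript length in kilobases and by the mapped total of the library), as means of the 2 libraries of each group. A gene was taken if it was protein-coding and autosomal, had a D6 mean of at least 10, had a D6 mean plus 1 at least 3 times the mean plus 1 of day 4 (D4) and of day 8 (D8), and stood above the mean of every other group. Of 55401 genes in the files, 20780 were protein-coding and autosomal, 5259 of them reached 10 on D6, 435 were also 3-fold over D4, 155 also 3-fold over D8 and 119 also above every other group. A further 8 (Ccl2, Ccl7, Col5a3, Cxcl1, Cxcl5, Fosl1, Icam1 and Junb) were left out by name, because chosen chemokine, adhesion, p53, collagen, Hox, Fos and Jun genes were not part of the set. The height on D6 is therefore the basis of the choice and is given below as a description, with no test. The same holds for the lower levels on D4 and D8. A gene with a level near that of D6 before D4 or after D8 must by this rule show a trough in between.

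There were 9 groups of 2 libraries. The reprogramming groups, sampled on days 2, 4, 6, 8, 10 and 12 (D2 to D12), were cultures of OG2 mouse embryonic fibroblasts (MEF) at passages 1-3 that had been switched to reprogramming medium; the labels name no chemical of that medium, which was renewed daily between days 4 and 8 and every 2 days otherwise. The riPSC group held induced pluripotent stem cells of the same 129XOG2 E13.5 embryo origin, and the mESC group the R1 embryonic stem cell line from mouse blastocyst. Both were grown on feeder cells in N2 and B27 medium with mLIF, CHIR99021 and PD0325901, so feeder RNA can be part of their values. D0 were the fibroblasts before the switch, kept in DMEM with fetal bovine serum. Nothing in the labels says that the 2 libraries of a group came from separate cultures, so p-values reflect the spread of these libraries alone, which may be technical.

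Some of the genes, such as Egr1, Nr4a1, Zfp36 and Ptgs2, are textbook members of the immediate early response, for which no list was counted here. In this response, growth factors, cytokines or stress act through kinase cascades on transcription factors already present in the cell, and short-lived mRNAs of new transcription factors, feedback inhibitors and secreted signals appear within a short time and are then destroyed. RNA-binding proteins such as tristetraprolin drive that destruction by binding AU-rich elements in the 3′ untranslated region. In fibroblasts the same signals also raise chemokines, prostaglandin enzymes, metalloproteinases and matricellular proteins, not all of them as immediate early genes, as is known from wound repair.

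The promoters of 8 of the genes are shown because they hold short motifs of this kind beside the start site, and because they stand for the proteases, the EGF receptor ligands, the oxysterol enzyme, the chemokines and the matricellular genes described below. Each line gives the 200 bases before the RefSeq start, 5′ to 3′ on the strand of the gene, in GRCm38.p6. Capitals mark TATAAA (the TATA box), TGANTCA (the AP-1 motif), TGACGTCA (the cAMP response element) and CATTCC (the TEAD motif).
Mmp3 (chr9:7445622-7445821, plus strand): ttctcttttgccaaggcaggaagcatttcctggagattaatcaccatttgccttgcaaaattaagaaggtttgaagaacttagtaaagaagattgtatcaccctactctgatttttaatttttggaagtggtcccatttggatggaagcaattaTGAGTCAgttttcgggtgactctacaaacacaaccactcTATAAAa
Mmp10 (chr9:7502142-7502341, plus strand): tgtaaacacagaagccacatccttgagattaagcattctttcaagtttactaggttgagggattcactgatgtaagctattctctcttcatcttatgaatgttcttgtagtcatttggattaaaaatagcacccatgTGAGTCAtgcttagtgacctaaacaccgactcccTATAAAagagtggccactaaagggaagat
Mmp13 (chr9:7272314-7272513, plus strand): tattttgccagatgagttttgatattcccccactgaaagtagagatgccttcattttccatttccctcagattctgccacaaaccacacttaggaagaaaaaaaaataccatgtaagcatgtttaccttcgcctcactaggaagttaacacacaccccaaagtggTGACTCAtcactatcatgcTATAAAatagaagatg
Areg (chr5:91139399-91139598, plus strand): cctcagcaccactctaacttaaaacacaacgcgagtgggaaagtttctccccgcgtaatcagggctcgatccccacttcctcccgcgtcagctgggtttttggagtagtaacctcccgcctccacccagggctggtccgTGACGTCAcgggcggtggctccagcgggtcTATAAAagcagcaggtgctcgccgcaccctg
Ch25h (chr19:34475149-34475348, minus strand): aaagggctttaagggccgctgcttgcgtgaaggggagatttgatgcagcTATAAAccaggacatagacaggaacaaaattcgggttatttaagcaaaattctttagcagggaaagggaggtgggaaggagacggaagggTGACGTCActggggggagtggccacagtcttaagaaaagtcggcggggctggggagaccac
Ccl8 (chr11:82114985-82115184, plus strand): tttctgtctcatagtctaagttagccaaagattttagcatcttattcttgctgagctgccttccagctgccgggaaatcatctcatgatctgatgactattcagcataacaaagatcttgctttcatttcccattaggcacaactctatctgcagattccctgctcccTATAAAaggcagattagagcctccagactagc
Ccl12 (chr11:82101645-82101844, plus strand): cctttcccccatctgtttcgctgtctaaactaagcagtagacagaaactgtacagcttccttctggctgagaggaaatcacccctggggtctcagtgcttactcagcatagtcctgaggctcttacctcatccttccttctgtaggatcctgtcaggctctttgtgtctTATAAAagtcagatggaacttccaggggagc
Ccn1 (chr3:145649986-145650185, minus strand): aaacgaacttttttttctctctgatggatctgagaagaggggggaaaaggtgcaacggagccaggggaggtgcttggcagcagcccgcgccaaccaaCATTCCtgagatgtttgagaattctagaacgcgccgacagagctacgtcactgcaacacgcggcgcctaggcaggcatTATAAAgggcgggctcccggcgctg

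The AP-1 motif began 46 bases before the start in Mmp3, 63 bases before it in Mmp10 and 35 bases before it in Mmp13. TATAAA lay between that motif and the start each time, but at unlike distances. It began 7 bases before the start in Mmp3, 29 in Mmp10 and 16 in Mmp13. The starts used in these cells were not measured. In Areg the cAMP response element began 61 bases and the TATA box 31 bases before the start. Ch25h held the same element 61 bases before its start, but its TATAAA lay 151 bases away. Of the 111 genes, 79 matched a RefSeq promoter of 250 bases before to 50 bases after the start, and motifs were searched on both strands of that window. A CArG box can hold TATAAA inside it and a kappaB site can hold CATTCC, and otherwise no motif contains another. TATAAA was in 15 of the 79 windows (19.0%), against 7.24% of the 10397 windows of tested protein-coding autosomal genes. TGANTCA was in 9 (11.4%, against 4.92% of all windows) and a kappaB site, the NF-kB motif, in 14 (17.7%, against 10.6%). For TGACGTCA the shares were 3.8% and 3.16%, for CATTCC 13.9% and 11.9%, and for the CArG box of serum response factor 1.27% and 1.31%. GCGNGGGCG, the motif of Egr proteins, was in 3 windows (3.8%), against 10.7% of all windows. The windows of the chosen genes had a median G and C content of 58.67% and 14 CG dinucleotides, against 61.0% and 21. The windows set beside those of the chosen genes were not limited to genes with a D6 mean of at least 10 FPKM. The part of level in these shares was not tested. A match describes these letters in this window and no binding was measured.

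Before the levels, some properties of the libraries bear on them. Depth, taken from the smallest FPKM steps of genes with a single exon, lay between 16500000 and 24600000 read pairs in 17 libraries and was about 61000000 in D2 replicate 2. On the log2(FPKM + 1) scale the median absolute difference between replicates over the chosen genes was 0.493 in D0, 0.536 in D2, 0.246 in D4 and 0.0795 in D6, and over all 16439 genes tested it was 0.28, 0.243, 0.184 and 0.109. Replicates of the early groups thus lay further apart, and D2 replicate 1 stood above D2 replicate 2 for the typical chosen gene, with medians over the 111 genes of 10.23 and 6.75 FPKM. The share of summed FPKM on the mitochondrial genome was 6.42% and 12.4% in D4, 44.2% and 35.4% in D6 and 50.2% and 52.4% in D8. Weighted by transcript length, which is nearer to a share of fragments, it was 0.951% and 1.75% in D4, 8.17% and 5.82% in D6 and 11.1% and 11.98% in D8. The part of this share in the levels was not tested.

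By the rule every gene was highest on D6, and the median over the set was several-fold above that of any other day. The median of the 111 group means was 2.96 FPKM on D0, 9.24 on D2, 5.10 on D4, 34.5 on D6, 7.14 on D8, 2.84 on D10 and 2.43 on D12, and 1.49 in riPSC and 1.71 in mESC. D6 means ran from 11 to 621, and 19 genes reached 100 FPKM. The D6 replicates lay close together, with a median ratio of the higher to the lower library of 1.06 and a largest ratio of 1.24. In 101 genes both D6 libraries stood above each of the 16 other libraries. In the other 10 a library of another group reached a D6 library: D2 replicate 1 in 6 genes, D0 replicate 2 in 2, and D2 replicate 2 and D12 replicate 1 in 1 each. Those genes were Areg, Filip1l, Cped1, Postn, Plk3, Pcdh7, Ptgs1, Igsf11, Csf1 and Csrnp1. Listed at 0 in both D0 libraries were 7 genes (Ltb4r1, Csn3, Ifit2, Ccl11, Prl2c2, Mmp13 and Rspo4). In bulk RNA, fewer cells with a transcript and less transcript per cell cannot be told apart.

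**Figure D1:**
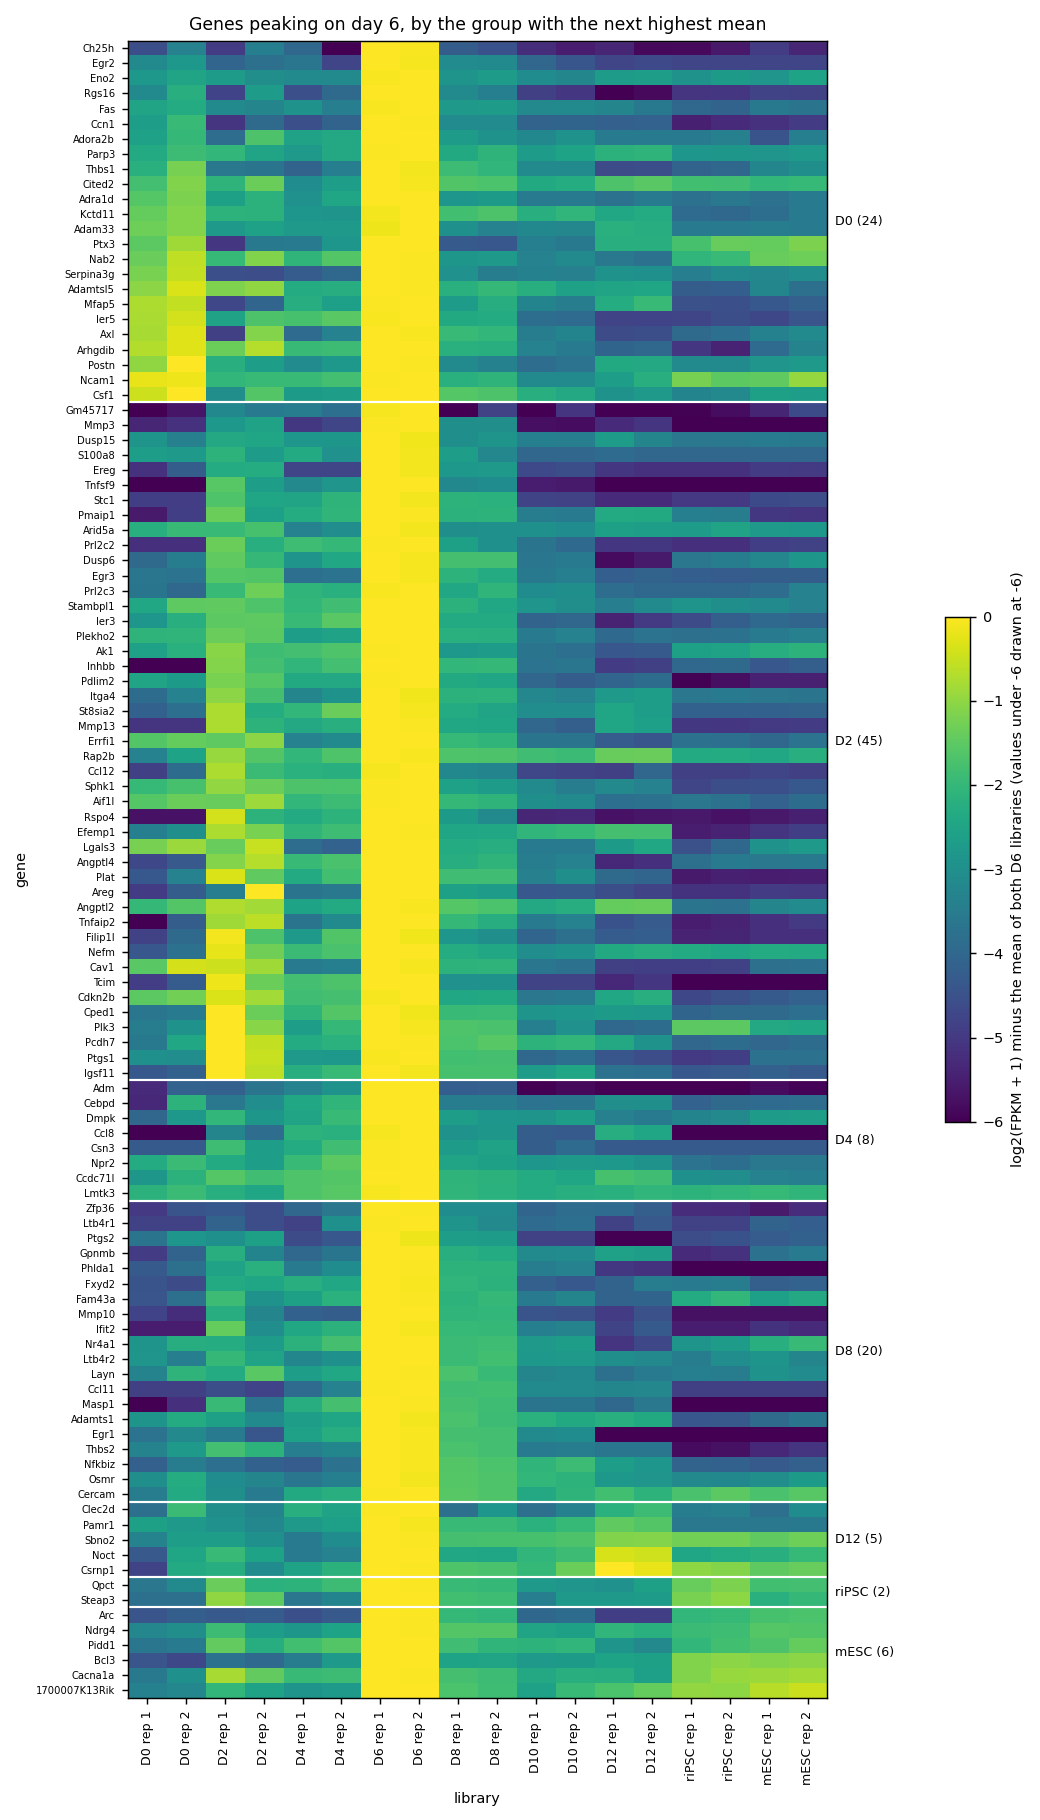
Level of 110 of the 111 genes (rows) in each of the 18 libraries (columns), as log2(FPKM + 1) minus the mean of the D6 libraries, grouped by the group with the next highest mean. The D6 columns are the brightest in nearly every row, the D2 columns come next in 45 rows and the D0 columns in 24, and D2 replicate 1 is often brighter than D2 replicate 2.

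The height of the peak over the next highest group, as the ratio of means plus 1, ran from 1.05 to 14.1 with a median of 2.90. It was at least 2 in 80 genes, at least 3 in 54 and under 1.5 in 15. The next highest group was D2 for 45 genes, D0 for 24, D8 for 20, D4 for 9, mESC for 6, D12 for 5 and riPSC for 2. The second level could thus lie on D0, as for Postn, on D2, as for Ereg, or in pluripotent cells, as for Bcl3. Just inside the 3-fold limit lay Cercam, Lmtk3, Ndrg4, Osmr and Pcdh7, with smaller ratios of 3.03 to 3.08. Just outside it lay Rgma, Dpm1, Spaca6, Dnajb5 and Reck, with 2.98 to 2.99.

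Transcription factors and their cofactors made up 11 of the genes, with D6 means of 18 to 165 FPKM. Egr1, Egr2 and Egr3 encode zinc finger factors of the immediate early response, and Nab2 a corepressor that binds them. Egr2 (ENSMUSG00000037868, chr10:67535475-67542188, plus strand in mm10) had 2.1 and 2.85 FPKM on D0, 0.640 and 0.944 on D2, 1.15 and 0 on D4, 27.6 and 24.5 on D6, 2.16 and 2.03 on D8, 0.666 and 0.283 on D10 and 0 and 0.0605 on D12, and was listed at 0 in all 4 riPSC and mESC libraries. No other library came near its D6 values, and its peak ratio was 7.79. Egr1 had 27.0 and 33.6 FPKM on D4, 171 and 158 on D6, 47.6 and 46.4 on D8 and 0.558 and 0.521 on D12, so part of its level was still there on D8 and almost none on D12. Egr3 had 5.34 and 5.13 FPKM on D2, 0.361 and 0.437 on D4 and 18.9 and 17.0 on D6, so the level on D2 was followed by a trough on D4 and a higher level on D6. Nab2, whose exons overlap Stat6 and Nemp1 on the other strand, had 26.6 and 25.4 FPKM on D6, against 9.43 and 17.0 on D0. The orphan nuclear receptor gene Nr4a1 had 15.8 and 20.7 FPKM on D4, 72.9 and 73.7 on D6 and 18.7 and 19.3 on D8.

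Nfkbiz and Bcl3 encode nuclear IκB proteins, which bind NF-kB dimers and alter which genes they act on. Nfkbiz had 1.36 and 2.32 FPKM on D4, 45.3 and 42.3 on D6, 13.7 and 12.8 on D8 and 9.70 and 11.1 on D10, a peak with a long tail. Bcl3 had 3.74 and 2.87 FPKM on D0, 8.26 and 14.1 on D4, 99.5 and 101 on D6, 16.8 and 17.0 on D8 and 16.8 and 15.8 on D12, and 44.8 and 47.9 in riPSC and 45.6 and 48.0 in mESC. Both pluripotent lines thus lay at about the same level, between D6 and the rest of the course. Cebpd, a C/EBP family factor of the acute phase response, had 38.9 and 39.7 FPKM on D6, against 6.59 and 8.61 on D4, and its D0 libraries lay apart at 0 and 8.24. Sbno2 and Cited2 encode transcriptional coregulators, with 49.3 ± 1.96 and 64.1 ± 4.50 FPKM on D6 (mean ± SD, n = 2, as for the D6 levels below). Csrnp1 peaked by the least of all, with 27.2 and 25.6 FPKM on D6 and 27.7 and 22.7 on D12, and these groups overlap.

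The 3 genes of RNA-binding and RNA decay proteins included one of the highest peaks. Zfp36 (ENSMUSG00000044786, chr7:28376784-28380253, minus strand in mm10) encodes tristetraprolin. It had 3.76 and 6.07 FPKM on D0, 6.55 and 5.40 on D2, 8.40 and 11.5 on D4, 157 and 148 on D6, 17.3 and 16.7 on D8, 8.38 and 9.62 on D10, 9.24 and 7.51 on D12, 3.06 and 2.97 in riPSC and 2.26 and 3.10 in mESC. All 16 libraries outside D6 stayed below 20 FPKM. Arid5a encodes a protein that stabilizes inflammatory mRNAs and had 14.2 ± 1.53 FPKM on D6. Noct, which encodes nocturnin, had 60.1 and 59.0 FPKM on D6 and 45.7 and 43.5 on D12, with lower levels on D8 and D10 in between.

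Ligands of the EGF receptor and the inhibitors that answer kinase signalling were 10 genes. Ereg and Areg encode epiregulin and amphiregulin, and lie 45953 bases apart on chromosome 5. Ereg had 0 and 0.903 FPKM on D0, 6.17 and 6.27 on D2, 0.328 and 0.324 on D4, 37.0 and 32.1 on D6, 4.1 and 4.24 on D8 and 0.384 and 0.506 on D10, and was under 0.2 in each of the 6 later libraries. Areg had 1.66 and 1.84 FPKM on D4, 33.7 and 33.4 on D6 and 4.76 and 4.25 on D8, but its D2 libraries stood far apart at 2.19 and 36.2, the second of them above D6. Of the feedback genes, Dusp6 (a phosphatase of ERK) had 81.0 ± 6.17 FPKM on D6 and Errfi1 (an inhibitor of the EGF receptor) 88.6 ± 0.308. Errfi1 was also present on D0, with 28.5 and 32.3 FPKM, and lower on D4, with 7.82 and 9.26. Its highest mean after D6 was that of D2. Rgs16, a GTPase activator that ends G protein signalling, had 2.30 and 4.01 FPKM on D4, 75.2 and 75.1 on D6 and 7.61 and 6.13 on D8. Phlda1 and Ier3, both early response genes, were among the 10 highest on D6, at 293 ± 7.97 and 233 ± 5.04 FPKM. Arc, known best as an activity-regulated gene of neurons, had 0.264 and 0.473 FPKM on D4, 29.2 and 27.6 on D6, 0 and 0 on D12 and 7.82 and 8.09 in mESC. Ier5 and Dusp15 completed the group, at 67.9 ± 3.77 and 11.5 ± 1.53 FPKM.

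Chemokine and cytokine genes, with those left out by name not counted, numbered 7. Ccl11, Ccl12 and Ccl8 encode chemokines that draw eosinophils, monocytes and other leukocytes, and lie within one stretch of chromosome 11. The gaps between neighbours were 38890 bases from Ccl11 to Ccl12 and 11785 bases from Ccl12 to Ccl8. Ccl8 (ENSMUSG00000009185, chr11:82115185-82116799, plus strand in mm10) had 0 and 0.274 FPKM on D0, 30.5 and 19.8 on D2, 68.6 and 65.0 on D4, 287 and 317 on D6, 38.6 and 41.8 on D8, 15.2 and 14.3 on D10 and 61.9 and 54.6 on D12, 0.888 and 0.641 in riPSC and 0.307 and 0.263 in mESC. It was already present on D2 and D4 and had a second, lower level on D12. Ccl11 had 0.941 and 1.85 FPKM on D4, 27.5 and 28.5 on D6 and 7.16 and 7.29 on D8, and Ccl12 had 16.6 and 6.75 on D2, 26.5 and 30.1 on D6 and 2.2 and 1.99 on D8. The 3 neighbours differed in how much was there on the other days. Tnfsf9, the ligand of the T cell receptor 4-1BB, was the sixth highest gene on D6, with 81.0 and 37.3 FPKM on D2, 25.9 and 32.2 on D4 and 239 and 245 on D6. Osmr, a receptor subunit for oncostatin M, had 0.383 and 0.631 FPKM on D4, 17.5 and 15 on D6 and 4.76 and 4.50 on D8. Csf1, the macrophage growth factor, had 31.5 and 31.4 FPKM on D6, against 22.5 and 35.9 on D0, and these overlap. S100a8, a subunit of calprotectin that is abundant in neutrophils, had 15.1 ± 1.80 FPKM on D6.

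Markers of leukocytes other than Cd68 were under 1 FPKM on D6. The summed level of 10 myeloid markers was 114 and 126 FPKM in D0, 7.49 and 9.13 in D4, 9.43 and 9.03 in D6 and 10.7 and 10.7 in D8. On D6 Ptprc, C1qa, C1qb, C1qc, Tyrobp and Adgre1 were listed at 0 in both libraries, and 1 of the 10, Cd68, was above 1 FPKM. Cd68 went the other way from the sum, with 1.31 and 2.56 FPKM in D0 and 2.33 and 4.62 in D4. It had 8.47 and 8.40 in D6, most of the D6 sum, and 9.33 and 9.80 in D8. The summed level of 6 lymphoid markers was 0.110 and 0 FPKM on D6, and that of 7 endothelial markers 16.2 and 18.7. The 8 fibroblast markers summed to 653 and 1002 FPKM in D0, 1789 and 2271 in D4, 2635 and 2588 in D6 and 513 and 512 in D8, so the sum on D6 was above that of the labelled fibroblasts. The largest single part of the D6 sum was Thy1, at 885 and 894 FPKM. In D0 the collagen genes Col1a1 and Col1a2 were at 303 and 502 and at 158 and 255 FPKM. Thy1 was at 147 and 173 there, Pdgfrb at 28.9 and 31.5 and Twist1 at 14.3 and 29.5. By contrast, Dcn was at 0 and 5.08 in D0, Lum at 1.05 and 3.25 and Pdgfra at 2.18 and 2.89. The 6 smooth muscle and pericyte markers summed to 2207 and 2892 FPKM in D0, 38.4 and 42.9 in D4, 357 and 376 in D6 and 26.5 and 24.1 in D8, so D0 was by far the highest of these groups. Most of the D6 sum was Acta2, at 330.3 and 348 FPKM, and the part of such cells in the levels of the 111 genes was not tested. The 7 striated muscle markers summed to 286 and 206 FPKM in D0, 9.55 and 8.04 in D4 and 2.46 and 3.57 in D6. These and the myeloid markers were thus highest in D0 of the groups given here. The part of such other cells in the D0 levels of the 111 genes was not tested. The 7 epithelial markers summed to 44.0 and 36.9 FPKM in D0, 16.6 and 15 in D4, 57.3 and 59.6 in D6 and 916 and 918 in D8.

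Enzymes and receptors of lipid mediators formed the group with the highest median peak ratio, 5.04 over 6 genes (1.14 to 14.1), and held the highest single one. Roles were assigned with the values known and the ratio uses means that the rule used, so the order of roles is a description only. Ch25h (ENSMUSG00000050370, chr19:34473778-34475164, minus strand in mm10) encodes cholesterol 25-hydroxylase, which makes the oxysterol 25-hydroxycholesterol. It had 2.19 and 6.39 FPKM on D0, 1.46 and 6.05 on D2, 3.76 and 0 on D4, 76.6 and 70.7 on D6, 2.96 and 2.30 on D8, 1.00 and 0.632 on D10, 0.818 and 0.270 on D12, 0.288 and 0.550 in riPSC and 1.41 and 0.818 in mESC. Its lowest D6 value was far above all 16 other libraries, and its peak ratio was 14.1. Ptgs2 and Ptgs1 encode cyclooxygenases 2 and 1, the inducible and the constitutive enzyme of prostaglandin synthesis. Ptgs2 had 7.77 and 10.7 FPKM on D2, 1.81 and 2.39 on D4, 76.5 and 62.2 on D6, 10.15 and 9.69 on D8, 1.43 and 1.5 on D10 and 0 and 0.0369 on D12. Ptgs1 had 36.5 and 24.3 FPKM on D2, 4.29 and 4.1 on D4 and 33.1 and 36.4 on D6. Its D2 and D6 values thus overlap, and the rule then required D4 to lie between them as a trough. The leukotriene B4 receptor genes Ltb4r1 and Ltb4r2 are 824 bases apart on chromosome 14. Ltb4r1 had 26.9 and 28.4 FPKM on D6 and Ltb4r2 10.9 and 11.3. Neither exceeded 3 FPKM in any other library. Sphk1, a sphingosine kinase, had 33.4 ± 1.55 FPKM on D6.

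**Figure D2:**
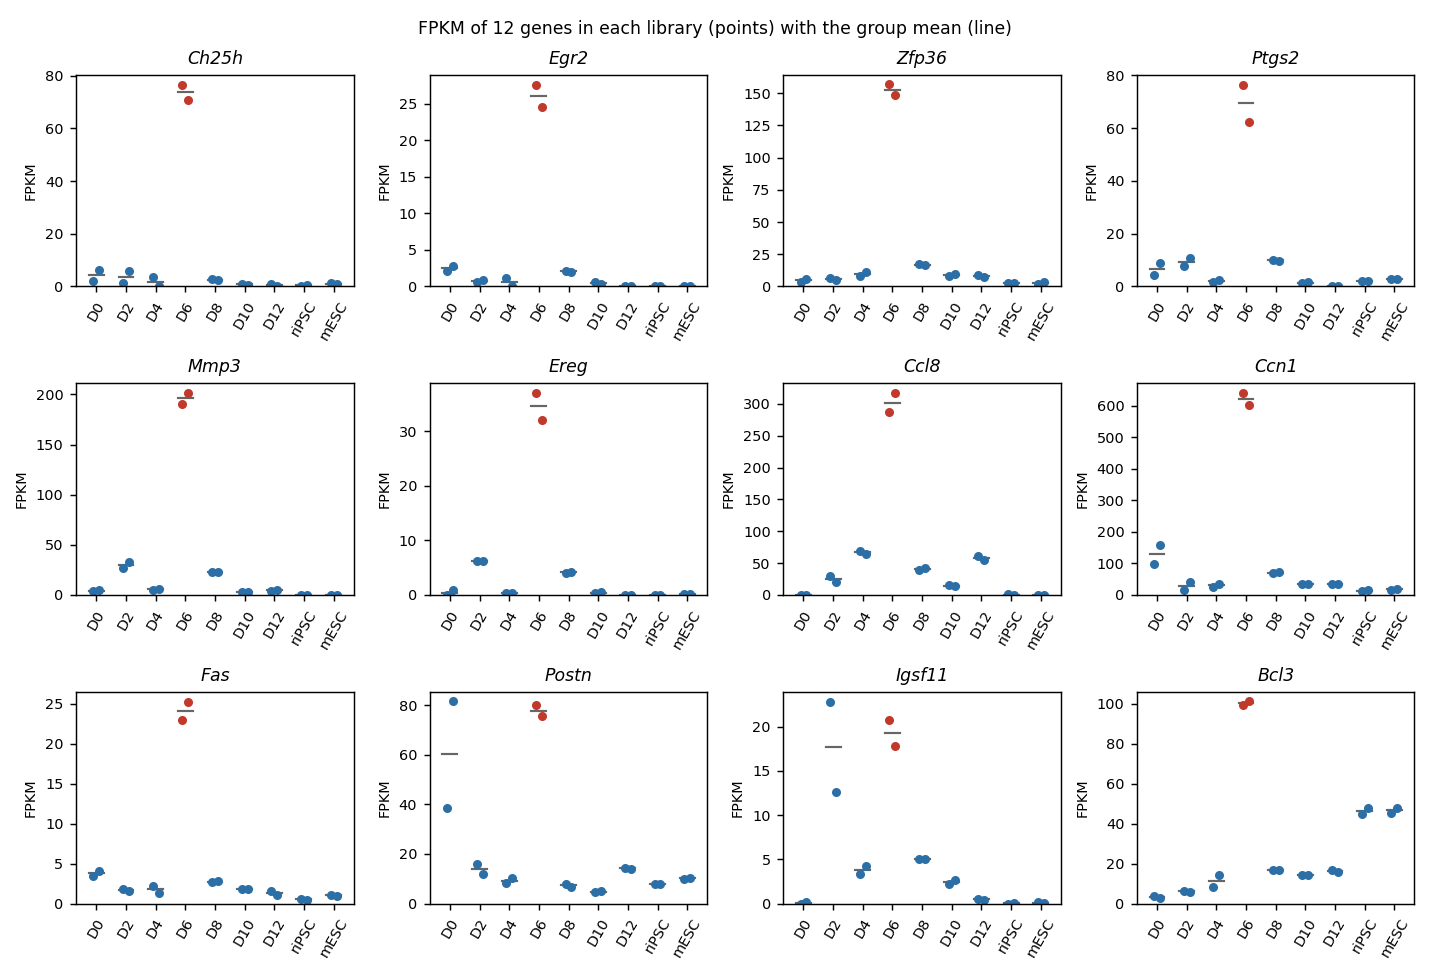
FPKM of 12 of the genes in every library (points, D6 in red) with the mean of each group (line), on linear axes that start at 0. Ch25h, Egr2, Zfp36 and Ptgs2 are low in all groups but D6, Ereg and Mmp3 have a smaller level on D2, Postn and Igsf11 have D0 or D2 libraries that reach D6, and Bcl3 is at 44.8 to 48.0 FPKM in both pluripotent lines.

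Innate immunity genes numbered 8. Ptx3, a pentraxin that also binds the hyaluronan matrix, had 10.5 and 17.1 FPKM on D0, 0 and 1.78 on D2, 1.82 and 3.58 on D4, 32.0 and 31.9 on D6, 0.671 and 0.592 on D8 and 11.3 and 13.5 in mESC. Tnfaip2 had 81.8 ± 1.62 FPKM on D6, Ifit2, an interferon-induced gene, 44.9 ± 3.51, and Masp1, a protease of the lectin pathway of complement, 114 ± 4.60. Lgals3 (galectin 3) and Gpnmb, a membrane glycoprotein, had 104 ± 2.24 and 73.7 ± 0.212 FPKM. Clec2d, a lectin-like surface ligand, had 12.9 ± 0.532 FPKM. Serpina3g had 10.7 and 17.5 FPKM on D0, 0.170 and 0.135 on D2 and 26.8 and 25.7 on D6, but it belongs to a multigene family of near-identical serpins and its reads may be shared with other copies.

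Secreted and membrane proteases numbered 7, and 3 of them were the metalloproteinase genes whose promoters are shown above. Mmp3 (ENSMUSG00000043613, chr9:7445822-7455975, plus strand in mm10) encodes stromelysin 1, which cleaves many matrix proteins. It had 3.77 and 4.57 FPKM on D0, 27.2 and 32.5 on D2, 5.0 and 6.36 on D4, 191 and 201 on D6, 23.2 and 23.2 on D8, 2.63 and 2.52 on D10 and 4.14 and 4.87 on D12, and at most 0.14 in the riPSC and mESC libraries. Levels on D2 and D8 were similar and D4 lay lower, and no library outside D6 passed 33 FPKM. Mmp10, stromelysin 2, lies 46377 bases from Mmp3 and had 10.05 and 4.56 FPKM on D2, 2.05 and 1.86 on D4, 52.4 and 52.4 on D6 and 11.8 and 12.17 on D8. Mmp13, collagenase 3, had 19.3 and 6.79 FPKM on D2, 5.54 and 6.28 on D4, 34.0 and 32.3 on D6 and 5.48 and 5.21 on D8. The tissue plasminogen activator gene Plat had 68.8 and 30.7 FPKM on D2 and 86.5 and 86.9 on D6. Adamts1, which cleaves proteoglycans, had 36.3 ± 3.98 FPKM on D6, and Adam33 and Pamr1 had 11.3 ± 1.73 and 11.2 ± 1.00.

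Matrix and matricellular genes numbered 9 and included the most abundant of the set. Ccn1 (ENSMUSG00000028195, chr3:145646976-145649981, minus strand in mm10) encodes a matricellular protein and is a target of YAP and serum response factor. It had 99.0 and 159 FPKM on D0, 17.4 and 40.0 on D2, 25.7 and 35.3 on D4, 640.3 and 603 on D6, 71.0 and 71.5 on D8, 35.3 and 35.9 on D10, 33.9 and 34.8 on D12, 13 and 15.1 in riPSC and 16.5 and 19.3 in mESC. D0 came second, and D2 and D4 lay far lower. Thrombospondin 1, encoded by Thbs1 and an activator of TGF-beta, had 51.6 and 101 FPKM on D0, 18.9 and 17.3 on D2, 13.1 and 21 on D4 and 258 and 219 on D6, so here too D0 stood above D2 and D4. Thbs2 had 52.0 and 41.2 FPKM on D2, 189 and 176 on D6 and 54.5 and 51.6 on D8. Postn, periostin, had 38.7 and 81.7 FPKM on D0 and 80.1 and 75.5 on D6, and the higher D0 library passed both D6 libraries. Mfap5, a microfibril protein, and Efemp1, a fibulin, had 32.0 ± 1.38 and 89.6 ± 3.97 FPKM on D6. Layn, a hyaluronan receptor, Adamtsl5 and Cercam had 21.1 ± 0.998, 24.2 ± 0.704 and 24.6 ± 0.699 FPKM.

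Hormone and growth factor genes numbered 8. Adm encodes adrenomedullin, a vasodilator peptide, and was the second highest gene on D6. It had 9.30 and 21.7 FPKM on D0, 20.9 and 29.4 on D2, 37.7 and 51.1 on D4, 397 and 385 on D6, 20.2 and 21.1 on D8 and 4.34 and 5.72 on D10, so both D4 libraries stood above D2, and D8 was back at the level of D2. Inhbb, the beta subunit of activin B, had 1.70 and 1.76 FPKM on D0, 91.5 and 56.2 on D2, 47.1 and 56.0 on D4 and 198 and 197 on D6. Stc1 (stanniocalcin 1), Angptl4, Angptl2 and Rspo4 (an R-spondin that enhances Wnt signalling) had 39.3 ± 4.54, 86.4 ± 1.79, 29.0 ± 1.70 and 51.2 ± 0.255 FPKM on D6. The proliferin genes Prl2c2 and Prl2c3 had 35.3 ± 1.06 and 14.8 ± 0.841 FPKM, and they are near-identical copies between which reads cannot be placed with certainty.

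Genes of cell death, arrest and stress kinases numbered 5. The death receptor gene Fas had 3.45 and 4.11 FPKM on D0, 2.25 and 1.34 on D4, 23.0 and 25.3 on D6, 2.65 and 2.84 on D8 and 0.612 and 0.468 in riPSC. Pmaip1, which encodes the BH3-only protein Noxa, had 50.2 and 20.3 FPKM on D2, 25.7 and 29.8 on D4, 133 and 125 on D6 and 28.3 and 28.9 on D8. Pidd1, a death domain protein induced by p53, had 35.9 ± 0.629 FPKM on D6. Plk3, a polo-like kinase, had 30.2 and 12.6 FPKM on D2 and 29.1 and 26.2 on D6, which overlap. Cdkn2b, the INK4 inhibitor p15, had 65.2 and 45.7 FPKM on D2, 22.5 and 23.5 on D4 and 78.4 and 86.9 on D6.

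Receptors, channels and adhesion proteins of the cell surface numbered 12 and had the lowest median peak ratio, 2.2. Cav1 (caveolin 1) and the receptor tyrosine kinase gene Axl had 87.7 ± 8.08 and 54.1 ± 2.66 FPKM on D6. Cav1 had 29.6 and 67.0 FPKM on D0 and 6.72 and 7.27 on D4, and Axl 30.8 and 44.1 on D0 and 2.68 and 4.47 on D4. Both were thus also present on D0 and low on D4. After D6 the highest mean was that of D2 for Cav1 and that of D0 for Axl, so the mean of Cav1 was not lower on D2 than on D0. Fxyd2, a modulator of the sodium pump, had 42.6 ± 2.27 FPKM on D6. Of the receptors, Npr2 (natriuretic peptides), Adora2b (adenosine) and Adra1d (noradrenaline) had 24.8 ± 0.731, 20.7 ± 0.426 and 12.5 ± 0.0945 FPKM. Of the adhesion genes, Igsf11, Ncam1, Pcdh7 and Itga4 had 19.3 ± 2.05, 17.0 ± 0.609, 15.3 ± 0.721 and 13.8 ± 1.93 FPKM. The calcium channel gene Cacna1a was the lowest of the set, at 11 ± 0.349 FPKM.

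The other 25 genes have mixed roles. Eno2, the neuronal form of enolase, had 2.77 and 2.79 FPKM on D4, 31.2 and 33.5 on D6 and 3.47 and 4.19 on D8, and stayed between 2.49 and 4.95 in the 16 libraries outside D6. Ak1 (adenylate kinase), Arhgdib (a GDP dissociation inhibitor), Pdlim2 and Tcim had 162 ± 7.26, 121 ± 2.75, 97.9 ± 4.41 and 91.1 ± 0.595 FPKM on D6. Nefm, Csn3, Steap3, Qpct, Dmpk, Parp3, Kctd11, Stambpl1, St8sia2, Rap2b, Aif1l, Plekho2, Filip1l, Ndrg4, Lmtk3, Ccdc71l, Fam43a, Cped1 and 1700007K13Rik lay between 12.15 and 58.5 FPKM. Gm45717 came after Ccn1 and Adm on D6 at 287 and 319 FPKM, against 26.9 and 20.8 on D4. It is an annotated readthrough transcript that shares exons with Ifitm2 and Ifitm5 on the same strand, Ifitm2 itself had 292 and 301 FPKM on D6 against 487 and 532 on D4, and how reads were split between them is not known. In addition, 31 of the 111 genes, Ch25h, Zfp36, Ereg, Bcl3, Phlda1, Tnfsf9, Rgs16 and Thbs1 among them, share exon sequence with a gene on the other strand. Whether counting used strand is not given in the sources used here, so reads of such pairs may be mixed.

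**Figure D3:**
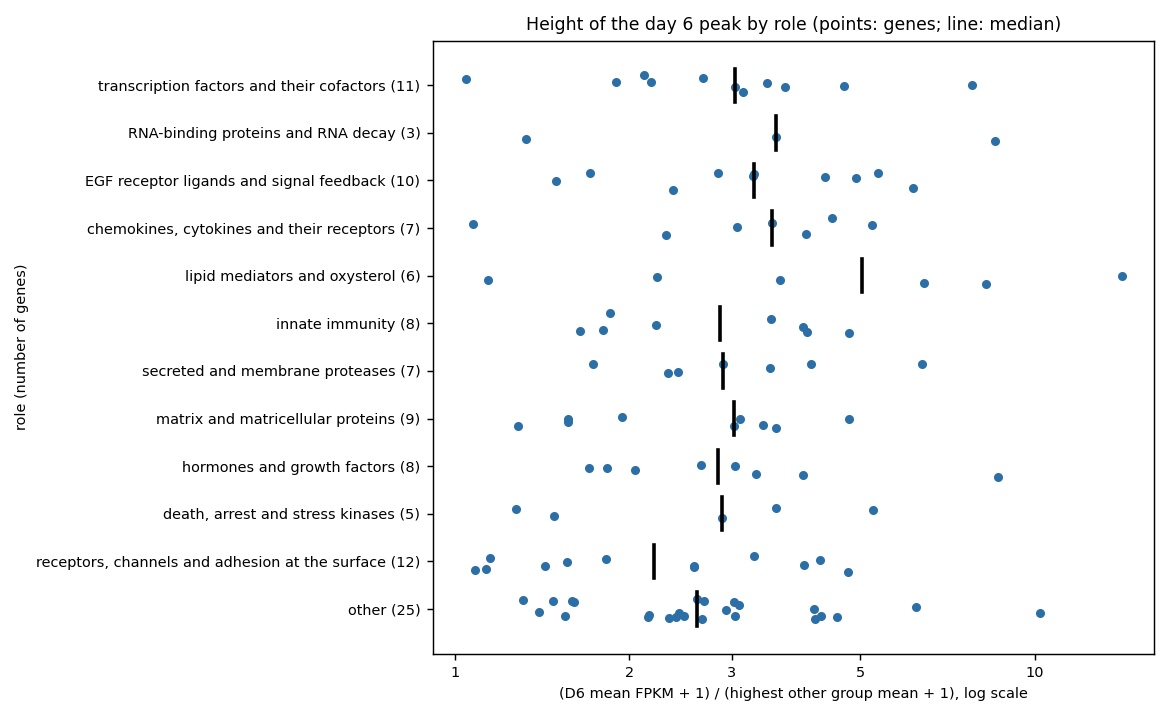
Ratio of the D6 mean plus 1 to the highest other group mean plus 1 for each gene (points) by role, with the median of each role (line), on a log axis. Medians run from 2.2 for surface proteins to 5.04 for lipid mediators, and the spread within each role is wider than the distance between most medians.

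Comparisons that leave out D4, D6 and D8 show where the same genes stood before and after the peak. The rule touched the groups used here only by requiring them to lie below D6. They were tested with limma on log2(FPKM + 1) over 16439 genes, and a gene was called at a Benjamini-Hochberg adjusted p under 0.05 and a difference of at least 2-fold on that scale, which understates changes of low genes. All 111 genes were tested, and all would have passed the filter of 1 FPKM in 2 libraries without the D6 libraries. Genes said to be higher or lower, or to have risen or fallen, in what follows were called in this way. All 18 libraries shared 1 estimate of spread per gene, although replicates lay further apart in D0 and D2. SE and p-values of comparisons with D0 or D2 can therefore be too small.

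At D2 against D0, 49 of the genes were higher and 11 lower (44.1% and 9.91%), where 19.5% and 4.63% of all genes tested were called. The median log2 fold change was 0.79 over the 111 genes and 0.24 over all genes. Tnfsf9 rose most, with 81.0 and 37.3 FPKM in D2 and 0 and 0.279 in D0 (log2 fold change 5.63 ± 0.26, adjusted p = 1.29e-08). Inhbb followed with 91.5 and 56.2 FPKM in D2 and 1.70 and 1.76 in D0 (log2 fold change 4.74 ± 0.17, adjusted p = 1.85e-09), and Tnfaip2 with 45.0 and 53.9 in D2 and 0 and 3.40 in D0 (log2 fold change 4.58 ± 0.47, adjusted p = 9.38e-06). Proteases and EGF receptor ligands were among the risers, Mmp3 at a log2 fold change of 2.58 ± 0.13, Mmp10 at 2.23 ± 0.25, Plat at 2.94 ± 0.35 and Ereg at 2.39 ± 0.21. Mfap5, Serpina3g and Ptx3 fell most, at -3.73 ± 0.22, -3.68 ± 0.21 and -3.11 ± 0.38, and the matricellular genes Ccn1, Thbs1 and Postn fell at -2.2 ± 0.31, -1.94 ± 0.26 and -1.97 ± 0.26. Of the 9 matrix and matricellular genes 4 were lower and 2 higher, the higher ones being Efemp1 at 2.23 ± 0.16 and Thbs2 at 1.10 ± 0.17. When the fit held the 4 libraries compared and no others, 1 gene was higher and 1 lower, and quantile normalization gave 42 higher and 19 lower.

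At D10 against D2, 8 genes were higher and 64 lower (7.21% and 57.7%), where 23.9% and 14.4% of all genes were called. The median log2 fold change was -1.20 over the 111 genes, against 0.29 over all genes. This comparison shares the D2 libraries with the one before, so the counts of both depend on the same D2 values. Rspo4 had 0.285 and 0.311 FPKM in D10 and 38.0 and 11 in D2 (log2 fold change -4.06 ± 0.37, adjusted p = 1.00e-06). Tcim fell by a similar amount (log2 fold change -4.02 ± 0.30, adjusted p = 1.40e-07), and so did Ptgs1, with 1.23 and 1.54 FPKM in D10 and 36.5 and 24.3 in D2 (log2 fold change -3.69 ± 0.15, adjusted p = 6.82e-10). All 8 hormone and growth factor genes were lower, as were 8 of the 10 genes of EGF receptor ligands and feedback. The genes that rose were Nfkbiz, Ccl11, Serpina3g, Bcl3, Cercam, Osmr, Pamr1 and Sbno2. Nfkbiz rose most, with 9.70 and 11.1 FPKM in D10 and 2.19 and 1.53 in D2 (log2 fold change 2.00 ± 0.21, adjusted p = 3.32e-06), and Ccl11 and Serpina3g had log2 fold changes of 1.54 ± 0.15 and 1.2 ± 0.21. With a pseudocount of 5, 1 gene was higher and 41 lower.

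At D12 against D10, 10 genes were higher and 14 lower (9.01% and 12.6%), where 6.01% and 4.68% of all genes were called. Ccl8 rose, with 61.9 and 54.6 FPKM in D12 and 15.2 and 14.3 in D10 (log2 fold change 1.91 ± 0.18, adjusted p = 4.43e-06), and Mmp13 rose at a log2 fold change of 1.58 ± 0.30. Csrnp1 passed narrowly (log2 fold change 1.60 ± 0.56, adjusted p = 0.0426) and lost its call when any of the 4 libraries was left out, at adjusted p-values of 0.0687 to 0.226. Egr1 fell most, with 0.558 and 0.521 FPKM in D12 and 18.1 and 18.4 in D10 (log2 fold change -3.65 ± 0.24, adjusted p = 1.81e-07), ahead of Tnfsf9 and Nr4a1 at -2.26 ± 0.26 and -2.19 ± 0.22. The count of higher genes was 5 without D10 replicate 1 and 6 without either D12 library, and a pseudocount of 5 left 3 higher and 4 lower.

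In riPSC against D0, 18 genes were higher and 44 lower (16.2% and 39.6%), where 40.1% and 13% of all genes were called. The median log2 fold change was -0.54 over the 111 genes and 0.62 over all genes, and for all genes it was 0.20 after median-of-ratios scaling. Bcl3 rose most (log2 fold change 3.46 ± 0.18, adjusted p = 3.51e-09), then Steap3, a metal reductase, at 2.66 ± 0.20 and Csrnp1 at 2.49 ± 0.56. Arhgdib had 2.71 and 1.88 FPKM in riPSC and 74.7 and 98.5 in D0 (log2 fold change -4.73 ± 0.23, adjusted p = 1.81e-09), and Ier5 and Cav1 fell at -4.06 ± 0.23 and -3.89 ± 0.27. With quantile normalization 8 genes were higher and 64 lower, and with the trend over exonic length removed 11 and 65. A pseudocount of 5 gave 8 higher and 27 lower. In riPSC against mESC, 1 gene was higher and 5 lower (0.901% and 4.5%), where 1.84% and 1.2% of all genes were called. The gene higher in riPSC was Pmaip1, with 11.1 and 10.7 FPKM in riPSC and 2.96 and 2.79 in mESC (log2 fold change 1.62 ± 0.31, adjusted p = 0.00376). The lower ones were Arhgdib, Gpnmb, Lgals3, Cav1 and Ptgs1, and Arhgdib had 2.71 and 1.88 FPKM in riPSC and 7.18 and 11.4 in mESC (log2 fold change -1.62 ± 0.23, adjusted p = 4.78e-04). With a pseudocount of 5 none of these 5 reached 2-fold. A second gene was called higher without riPSC replicate 1 or without mESC replicate 2.

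**Figure D4:**
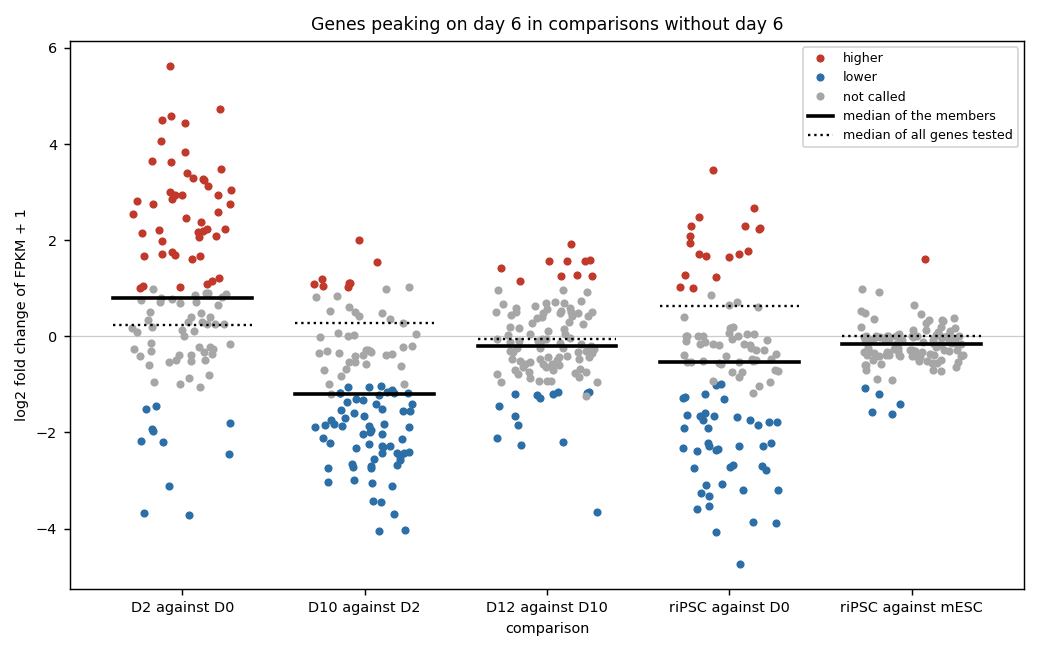
Log2 fold change of FPKM + 1 of each of the 111 genes (points; red higher, blue lower, grey not called) in 5 comparisons without D6, with the median of these genes (solid line) and of all genes tested (dotted line). The solid line lies above the dotted one at D2 against D0 (0.79 and 0.24) and below it at D10 against D2 (-1.20 and 0.29) and in riPSC against D0 (-0.54 and 0.62).

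In 12 of the 111 genes (10.8%) none of these 5 comparisons was called, where 26.7% of all genes tested were called in none. They were Adora2b, Ccdc71l, Cebpd, Cited2, Dmpk, Dusp15, Eno2, Lmtk3, Ltb4r1, Ltb4r2, Parp3 and Zfp36. For Zfp36 limma gave log2 fold changes of 0.26 ± 0.20 at D2 against D0 (adjusted p = 0.294) and -0.53 ± 0.20 in riPSC against D0 (adjusted p = 0.0256). The second passed the limit on adjusted p, but neither reached 2-fold.

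As a view of the surrounding pathways, 15 lists of pathway genes were examined, of which 181 genes outside the 111 were tested. Of these, 81 were higher and 21 lower at D6 against D4, where 11.6% and 6.86% of all genes tested were called, and 27 were higher and 57 lower at D8 against D6, where the shares of all genes were 15.1% and 11.3%. The lists were drawn up with earlier results of these data known, and both comparisons share the D6 libraries.

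NF-kB targets and secreted inflammatory factors outside the set had 9 of 19 genes higher at D6 against D4 and 0 lower by limma, also 0 lower at an unadjusted p under 0.05. The chemokine gene Cxcl2 had 8.58 ± 0.993 FPKM in D6 and 0.152 ± 0.178 in D4 (log2 fold change 3.06 ± 0.17), and was lower again at D8 against D6 (-2.96 ± 0.17). Irf1, an interferon regulatory factor, had a log2 fold change of 2.88 ± 0.13, Tnfaip3, the feedback inhibitor A20, one of 2.61 ± 0.26, and Cxcl10 one of 2.60 ± 0.32. At D8 against D6, 7 of the 19 were lower and 2 higher. Members of the list within the set are Nfkbiz, Bcl3, Tnfaip2 and Csf1.

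In the list named for the IL-6 family and STAT3, 9 of 12 genes were higher at D6 against D4 and 0 lower, also 0 at an unadjusted p under 0.05. The list also holds genes of other cytokine signalling, namely Il1r1, Il1rn, Il1rl1, Il4ra, Il13ra1 and Cish. Of these, Il1r1, Il4ra, Il13ra1 and Cish were among the 9 higher genes, so the count is not one of IL-6 and STAT3 genes alone. Socs3, which blocks signalling of these receptors, had 257 ± 1.14 FPKM in D6 and 10.7 ± 2.39 in D4 (log2 fold change 4.47 ± 0.51, adjusted p = 2.01e-05). Its call at D8 against D6 (-1.31 ± 0.51) was lost when any library of either day was left out. Il1r1, the interleukin 1 receptor, had a log2 fold change of 3.03 ± 0.18 and the kinase gene Pim1 one of 2.58 ± 0.21, and the set holds Osmr of this list. At D8 against D6, 4 of the 12 were lower and 0 higher, and 1 was higher at an unadjusted p under 0.05.

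Of p53 targets, 12 of 18 were higher at D6 against D4 and 0 lower, also 0 at an unadjusted p under 0.05, and at D8 against D6 4 were lower and 0 higher (1 higher at an unadjusted p under 0.05). Btg2, an antiproliferative gene, had 118 ± 3.85 FPKM in D6 and 9.36 ± 1.93 in D4 (log2 fold change 3.54 ± 0.25, adjusted p = 5.37e-07). Trp53inp1, Ccng1 and Eda2r had log2 fold changes of 2.64 ± 0.37, 2.53 ± 0.27 and 2.50 ± 0.31, and none of these 3 was called at D8 against D6. Within the set, Fas, Pmaip1 and Plk3 belong to this list.

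The mixed list of TGF-beta, serum response factor and YAP targets had 12 of 17 genes higher at D6 against D4 and 1 lower. The lower gene was Tgfbi (log2 fold change -2.15 ± 0.22). Smad7 (-0.67 ± 0.17) and Skil (0.12 ± 0.25) were among the genes not called. Targets of each regulator were not counted apart. At D8 against D6, 10 of the 17 were lower and 1 higher. Ankrd1 had 29.3 ± 0.933 FPKM in D6 and 0.104 ± 0.147 in D4 (log2 fold change 4.78 ± 0.40, adjusted p = 1.48e-06), and was lower at D8 against D6 (log2 fold change -3.56 ± 0.40). Actg2 and Ccn2 had log2 fold changes of 3.78 ± 0.48 and 3.5 ± 0.26 at D6 against D4. Ccn1, Thbs1 and Postn are the members of this list within the set. In this list Acta2 and Cnn1 are also smooth muscle markers, whose summed levels are given above.

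In the list of proteolysis and hyaluronan matrix, 10 of 13 genes were higher at D6 against D4 and 0 lower (1 lower at an unadjusted p under 0.05), and 9 were lower and 0 higher at D8 against D6 (1 higher at an unadjusted p under 0.05). Spp1 (osteopontin), Timp3 (an inhibitor of metalloproteinases), Tnc (tenascin C) and Has1 (a hyaluronan synthase) had log2 fold changes of 4.19 ± 0.56, 3.87 ± 0.25, 3.69 ± 0.56 and 3.24 ± 0.24 at D6 against D4. Spp1 was the exception on D8, with 425 ± 11.9 FPKM in D8 and 172 ± 5.91 in D6, a difference that did not pass (log2 fold change 1.3 ± 0.56, adjusted p = 0.0647). Mmp3, Mmp10, Mmp13, Adamts1, Ptx3 and Plat are members of this list. Of 4 other prostaglandin genes tested, Ptgis, Ptges and Pla2g4a were higher at D6 against D4 (2.90 ± 0.22, 2.16 ± 0.11 and 1.49 ± 0.28). At D8 against D6 these 3 and Ptger4 were lower. Ptgs1 and Ptgs2 are the members of this list within the set.

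Other lists moved differently. Of BMP targets and antagonists, 1 of 12 was higher at D6 against D4 and 9 were lower. The higher gene was Grem1, a BMP antagonist (3.05 ± 0.23), and Nog and Bambi were lower (-2.68 ± 0.20 and -2.29 ± 0.16). At D8 against D6, 6 of these 12 were lower and 0 higher, and 1 was higher at an unadjusted p under 0.05. Interferon-stimulated genes had 6 of 10 higher at D6 against D4 and 9 of 10 higher at D8 against D6, with 0 lower at either step, also at an unadjusted p under 0.05. Isg15 had 0.352 ± 0.144 FPKM on D4, 3.60 ± 0.193 on D6 and 15.4 ± 0.525 on D8, whereas Ifit2 of the set had 10.5 ± 0.0885 on D8.

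Stress responses were mixed at D6 against D4. In the ATF4 list 3 of 17 genes were higher and 4 lower, with Atf3 at 2.87 ± 0.24 and the amino acid transporter genes Slc7a11 and Slc3a2 at -1.19 ± 0.20 and -1.13 ± 0.19. Of NRF2 and metallothionein genes, 4 of 13 were higher and 1 lower, with Hmox1 (heme oxygenase 1) at 2.62 ± 0.17 and Mt2 at 1.96 ± 0.12. Of heat shock genes 3 of 8 were higher, the HSP70 genes Hspa1b and Hspa1a at 2.47 ± 0.22 and 2.38 ± 0.21 and Hspb1 at 1.45 ± 0.26. These HSP70 genes are near-identical copies, so their split is uncertain. Of hypoxia genes other than Adm, 2 of 9 were higher and 1 lower, and Ndrg1 had 36.2 ± 4.46 FPKM on D4, 12.8 ± 0.197 on D6 and 175 ± 5.31 on D8, where Adm of the set was highest on D6. Of the higher hypoxia genes, Bnip3 (1.28 ± 0.41) lost its call without D4 replicate 1 or either D6 library, and Slc2a1 (1.07 ± 0.24) fell below 2-fold without D4 replicate 1. Retinoid response genes had 2 of 11 higher and 3 lower, complement and acute phase genes 4 of 10 higher, with Saa3 at 3.05 ± 0.20, and cAMP targets 1 of 8 higher and 2 lower. At D8 against D6, 3 genes were higher and 3 lower in the ATF4 list and likewise in the NRF2 list, and 1 was higher and 6 lower among retinoid genes. Complement had 3 higher and 1 lower. Hypoxia had 3 higher and 0 lower, also 0 lower at an unadjusted p under 0.05, and cAMP targets 2 higher and 0 lower, with 1 lower at an unadjusted p under 0.05. Heat shock genes had 0 calls in either direction at that step, where 2 were higher and 3 lower at an unadjusted p under 0.05.

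**Figure D5:**
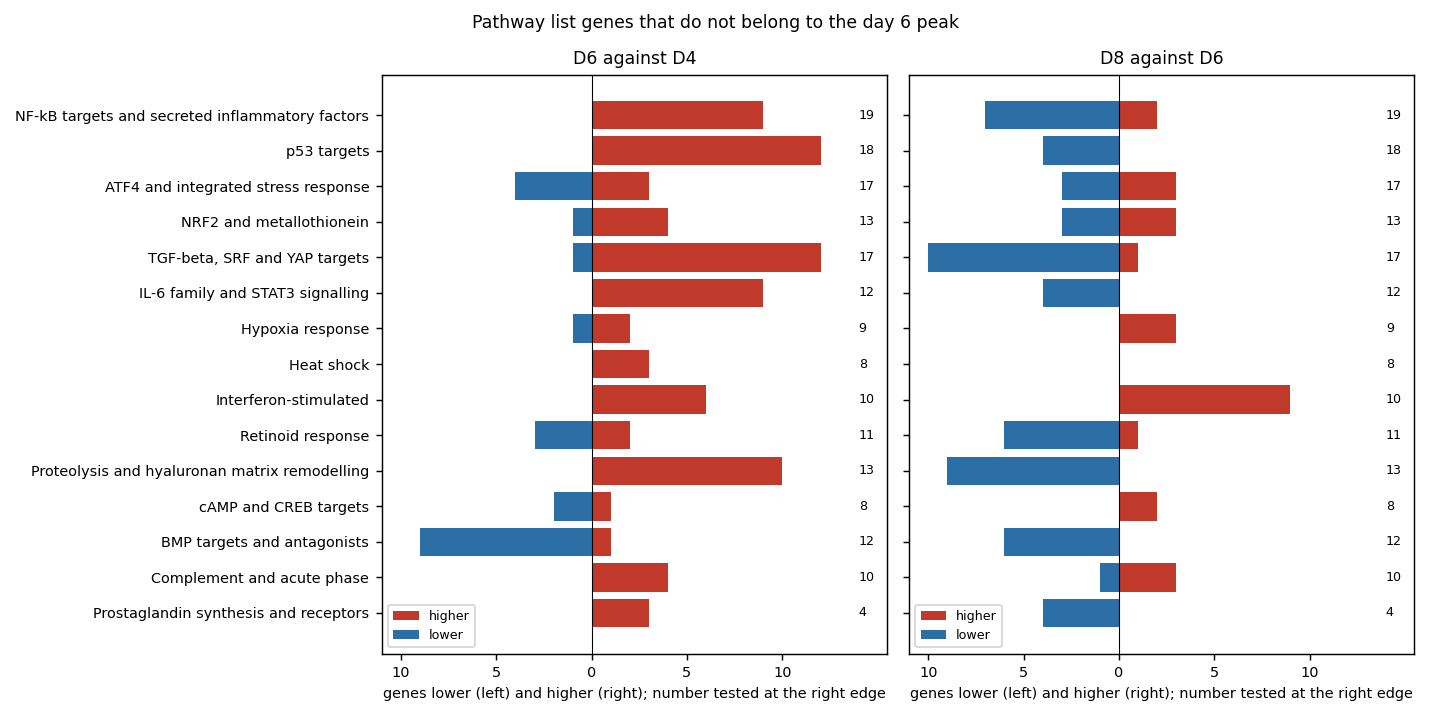
Number of pathway list genes outside the 111 that were higher (red, right) or lower (blue, left) at D6 against D4 (left panel) and at D8 against D6 (right panel), with the number tested at the right edge. The p53, TGF-beta/serum response factor/YAP, IL-6/STAT3 and matrix proteolysis lists extend to the right in the first panel (12, 12, 9 and 10 genes). In the second panel these lists extend to the left (4, 10, 4 and 9). BMP genes extend to the left in both, and interferon genes to the right in both.

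Some features of the genes were not used by the rule directly. The rule asked for a D6 mean of at least 10 FPKM, whereas the genes set beside them needed only 1 FPKM in 2 libraries. The part of this difference in level in the features below was not tested. Their median span on the chromosome was 10818 bases and their median number of exons 6, against 23116 bases and 9 exons in 13432 tested protein-coding autosomal genes, while their exonic length was 3699 against 4270 bases. They lay on all 19 autosomes, to which the rule confined them, 13 of them on chromosome 2. Within 100000 bases of each other lay 9 pairs, among them Ch25h and Ifit2 (75530 bases apart), Stambpl1 and Fas (50333) and Egr3 and Pdlim2 (81604) beside the pairs named above. Genes by chromosome and pairs were not counted over all genes tested, so these positions are a description and not a feature of the set. The AU-rich letters TATTTAT were in the 3′ untranslated region of 40 of the 111 genes (36.0%), against 29.1% of 13416 genes, at 0.638 and 0.268 sites per kilobase. The longer TTATTTATT was in 14.4%, against 7.81%. Median lengths of these regions were 1004 and 1267 bases. Eno2 held 10 sites of the shorter motif, Ptgs2 and St8sia2 6 each and Thbs2 5. These are letters in the annotation, and RNA decay was not measured.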

How the data were processed

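RNA of 18 libraries in 9 groups was sequenced as 150 bp reads, per the labels. The authors deposited 1 table per library with 55401 Ensembl genes in FPKM, and the unit was read from the file headers and values. Fastp 0.20.1, HISAT2 2.2.1, StringTie 2.0 and mm10 are named in the submitters' processing notes, and the annotation release and use of strand are not given in the sources used here. FPKM are relative to the mapped fragments of a library, so mitochondrial fragments lower other values by their share of fragments, and the sum of FPKM is not fixed. Symbols and positions came from GENCODE M21 (55141 IDs matched), and promoters from RefSeq GRCm38.p6.

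The 111 genes follow the rule stated at the start. The genes, their roles and the pathway and marker lists were chosen with earlier results of these data known. Differences were fitted with limma 3.58.1 (R 4.3.3) on log2(FPKM + 1), with a mean for each of the 9 groups, all 18 libraries sharing 1 estimate of spread (9 residual degrees of freedom), and Benjamini-Hochberg adjustment over the 16439 genes with at least 1 FPKM in at least 2 libraries. Values after ± are SD for levels and SE for log2 fold changes. Tables and plots used Python 3.11.15, pandas 2.3.3, numpy 2.4.6 and matplotlib 3.10.9. The fit was tested on simulated data.

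Genes named are the 15 with the highest peak ratio, the 10 highest on D6, members of the 15 pathway lists, those at the edge of the rule, the 3 highest and 3 lowest called genes of each comparison, and up to 4 called genes of each list outside the set. Other genes were named after their values were seen, to account for the genes of the set or to show how the genes of a list differed. Of the 111 genes, 1 is counted but not reported by itself, and the same holds for 1 gene of a pathway list; 19 more are given by their range. Alternatives were other pseudocounts, filters, scalings, spreads, thresholds, a replicate block and leaving out each library. The labels number the libraries 1 and 2 without saying that a number marks a shared culture or day. Depth is not stated, and its estimate from the steps of single-exon genes used 21767 genes.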

Additional observations from a re-analysis of the deposited data

How the results depend on the processing

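With a 2-fold limit in the rule 277 genes peaked on D6, and with a 5-fold limit 29. It gave 108 to 126 genes when 1 library was left out. At D2 against D0, leaving out a library gave 45 to 56 higher and 10 to 16 lower genes of the set. Quantile normalization gave 19 lower, the 4 libraries compared alone 1 higher and 1 lower, and no fold threshold 18 lower. At D10 against D2, leaving out a library gave 7 to 9 higher and 60 to 63 lower. There, 1 gene was higher and 41 lower with a pseudocount of 5, 3 higher after median-of-ratios scaling, 2 after quantile normalization, 3 with the length trend removed (chosen after seeing the data) and 13 with no fold threshold. At D12 against D10, leaving out a library gave 5 to 7 higher and 13 to 14 lower, a pseudocount of 0.1 gave 26 lower, one of 5 gave 3 higher and 4 lower, and no fold threshold 24 higher and 26 lower. In riPSC against D0, leaving out a library gave 16 to 20 higher and 41 to 53 lower, a pseudocount of 5 gave 8 higher and 27 lower, quantile normalization 8 higher and the length trend removed 11 higher. In riPSC against mESC, leaving out a library gave 1 to 2 higher and 4 lower, a pseudocount of 0.1 gave 2 higher and 10 lower, one of 5 gave 0 lower, the libraries compared alone 3 lower, and no fold threshold 3 higher and 8 lower. For the pathway genes, leaving out a library gave 73 to 85 higher and 16 to 24 lower at D6 against D4, and 25 to 26 higher and 55 to 57 lower at D8 against D6. No fold threshold gave 32 lower at the first step and 46 higher and 87 lower at the second, where a pseudocount of 5 gave 13 higher. Hspb1 in D8 against D6 reversed to a log2 fold change of 0.0376 after quantile normalization. Pde4d in D8 against D6 reversed to -0.0433 after it and to -0.0795 with the length trend removed. Neither gene was called there. The cause of these changes was not tested. Over all genes tested the median log2 fold change was 0.24 at D2 against D0, 0.29 at D10 against D2 and 0.62 in riPSC against D0 as deposited, and 0.05, 0.14 and 0.20 after median-of-ratios scaling.

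Same-numbered libraries had correlated deviations over 0.1 in 5 of 36 pairs of groups, so the numbers were not shown to pair them. With the replicate block the counts were 49 higher and 11 lower at D2 against D0, and 18 higher and 45 lower in riPSC against D0. A crossed block gave 81 higher and 21 lower pathway genes at D6 against D4. Alternative values were tallied for 140 pairs of a gene and a comparison, most of them for pathway genes outside the set. Genes of the set entered only as the highest and lowest called genes of each comparison. Others given with a fold change, such as Plat, Ereg and Postn at D2 against D0, were not included. Of these 2154 values, 2059 kept their direction and their side of the threshold, 63 lost the call, 29 gained one and 3 reversed. This tally thus does not describe the set as a whole. Levels under 1 FPKM, as 28 of the genes had on D0, rest on few reads at these depths.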
